A study of Mus musculus with 18 samples.

Results

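G9a occupancy was compared between cardiomyocytes that had lost the enzyme and control cardiomyocytes, over 617784 of the 621134 regions that the authors listed for G9a. The regions kept were all those on chromosomes 1 to 19, and each carried 4 values, 2 from control and 2 from knockout libraries. G9a, encoded by Ehmt2, is a histone methyltransferase that works on lysine 9 of H3, usually as a pair with its close relative GLP (Ehmt1). The mono- and dimethyl marks it writes are bound by repressive proteins and are found over silent genes and over broad stretches of chromatin. In the heart, H3K9 methylation has been studied for its part in keeping fetal and germline genes silent and in the growth response to load.

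The study profiled cardiomyocyte-enriched populations of C57BL/6J mice by chromatin immunoprecipitation and sequencing for 4 targets, with 18 libraries in 10 groups, of which 4 libraries are used for the main comparison. The 2 KO libraries came from mice of genotype G9a flox/flox; alphaMHC-MerCreMer +/-, and the 2 Cre libraries from mice of genotype alphaMHC-MerCreMer +/-. Both groups therefore carried the inducible recombinase, and they differed by the floxed gene. The Cre is driven by the promoter of Myh6, which is active in cardiomyocytes, so endothelial cells, fibroblasts and other cells that remain in an enriched population keep an intact Ehmt2. The antibody was anti-G9a from Sigma (G6919), and the labels give neither the age of the mice nor the tamoxifen treatment. Occupancy of a gene by G9a is no measure of its transcript, so the labelled cell type and the deletion could not be checked against marker transcripts. The labels describe the libraries as biological replicates but do not say how many mice went into each.

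The deposited numbers have no stated scale and are called signal values here. The list holds regions chosen by the authors for a difference between KO and Cre, and sequence outside it has no value. Only 2.49% of the regions had a log2 ratio of KO mean to Cre mean smaller than 0.5 in size, so the ratios of single regions are a description of how the list was made and are given without support from a test. A log2 ratio here always has 1 added to both means. Values are called apart where the 2 KO values were both higher, or both lower, than either Cre value. With 2 libraries against 2, the smallest two-sided p of an exact permutation test is 0.333.

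Gene starts give the clearest view of the sequence under listed regions, because RefSeq supplies the bases there. The 6 stretches that follow are the 250 bases before the start of the genes whose start lay in the listed regions with the lowest ratios (Gabbr1, Olfr854, Il1rl2) and the highest ratios (Rrh, Ndor1, Trim2). They were taken from regions that covered the whole window of 250 bases before to 50 after the start, with a larger group mean of at least 200 and values apart. All are RefSeq sequence of GRCm38.p6, read 5′ to 3′ on the strand of the gene, and capitals mark each CpG, the base pair of letters that DNA methylation acts on.
Gabbr1: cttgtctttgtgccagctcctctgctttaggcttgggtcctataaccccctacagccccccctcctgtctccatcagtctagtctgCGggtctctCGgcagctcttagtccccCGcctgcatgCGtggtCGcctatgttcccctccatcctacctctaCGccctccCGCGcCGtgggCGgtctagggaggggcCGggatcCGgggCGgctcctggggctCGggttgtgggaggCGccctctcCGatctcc
Olfr854: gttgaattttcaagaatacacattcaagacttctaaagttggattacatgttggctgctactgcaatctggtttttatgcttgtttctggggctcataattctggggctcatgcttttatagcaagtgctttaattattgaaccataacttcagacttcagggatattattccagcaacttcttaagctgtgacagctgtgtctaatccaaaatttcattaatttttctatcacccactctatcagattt
Il1rl2: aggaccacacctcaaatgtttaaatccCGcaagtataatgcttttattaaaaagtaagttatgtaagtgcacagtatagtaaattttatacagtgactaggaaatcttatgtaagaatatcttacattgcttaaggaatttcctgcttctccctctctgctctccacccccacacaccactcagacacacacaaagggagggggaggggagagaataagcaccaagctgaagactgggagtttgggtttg
Rrh: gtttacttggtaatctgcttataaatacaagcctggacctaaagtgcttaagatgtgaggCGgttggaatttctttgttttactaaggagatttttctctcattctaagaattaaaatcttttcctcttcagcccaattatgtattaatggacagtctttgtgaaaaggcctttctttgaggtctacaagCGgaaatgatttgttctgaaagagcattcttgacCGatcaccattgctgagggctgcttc
Ndor1: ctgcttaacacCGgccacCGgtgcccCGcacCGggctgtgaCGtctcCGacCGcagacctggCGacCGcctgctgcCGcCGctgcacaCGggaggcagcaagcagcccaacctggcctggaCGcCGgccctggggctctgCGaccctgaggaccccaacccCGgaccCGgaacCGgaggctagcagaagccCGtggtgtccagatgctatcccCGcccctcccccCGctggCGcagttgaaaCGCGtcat
Trim2: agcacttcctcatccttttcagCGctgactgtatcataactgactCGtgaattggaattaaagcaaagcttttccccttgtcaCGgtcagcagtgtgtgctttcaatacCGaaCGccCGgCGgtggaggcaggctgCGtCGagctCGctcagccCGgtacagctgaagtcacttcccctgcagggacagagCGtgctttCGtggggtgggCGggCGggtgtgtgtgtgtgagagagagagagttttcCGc

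Gabbr1 encodes a subunit of the GABA-B receptor, and its stretch lies at chr17:37045716-37045965 on the plus strand. The region over it had signal values of 238 and 252 in Cre against 26 and 15 in KO, and the printed stretch holds 16 CpG. Olfr854 is an olfactory receptor gene whose stretch, at chr9:19567383-19567632 on the minus strand, holds 0 CpG. Its region went from 202 and 230 in Cre to 36 and 6 in KO. At Il1rl2, a receptor for interleukin-36 (chr1:40324339-40324588, plus strand), values were 176 and 329 in Cre and 55 and 6 in KO, and 1 CpG lies in the stretch. All 3 regions were far lower in both KO libraries, with log2 ratios of -3.52, -3.30 and -3.01.

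On the side of higher signal, Rrh encodes peropsin, an opsin-like receptor (chr3:129822506-129822755, minus strand, 3 CpG). Its region measured 2 and 26 in Cre but 127 and 358 in KO. Ndor1, a diflavin reductase gene (chr2:25255415-25255664, minus strand, 24 CpG), measured 0 and 73 in Cre against 125 and 308 in KO. Trim2, a ubiquitin ligase gene (chr3:84259780-84260029, minus strand, 16 CpG), measured 41 and 35 in Cre against 166 and 241 in KO. In each of these 3 regions the second KO value was the higher of the pair. The log2 ratios were 4.02, 2.54 and 2.39.

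Across the whole list, most regions had less G9a signal in KO. The KO mean was under the Cre mean at 380740 regions (61.6%) and over it at 237044. The authors' choice of regions set this split, so it was not tested. Lower regions had a median log2 ratio of -1.03 and covered 296.4 Mb, while higher regions had a median of 0.90 and covered 169.7 Mb. The lower regions were slightly longer, with a median length of 700 bases against 650. Both KO values were 0 at 576 regions and both Cre values were 0 at 46. A ratio of at least 4-fold in size was seen at 32584 lower and 8682 higher regions.

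The signal values of all listed regions summed to 8.16e+07 and 7.44e+07 in the Cre libraries and to 6.71e+07 and 6.00e+07 in the KO libraries. The KO total was 81.4% of the Cre total, a log2 difference of -0.30, and the 2 groups did not overlap (exact permutation p = 0.333, two-sided, the smallest that 4 libraries can give). Median signal per kb of region was 165.0 and 152.7 in Cre against 131.2 and 112.4 in KO, in the same order. Because these sums run over chosen regions and the authors' scaling is not known, a lower total in KO and a difference in library scale cannot be told apart. Results that rest on the direction of small differences are therefore given also with the 4 libraries scaled to the same median.

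No single region passed limma's test at an adjusted p of 0.05 (0%, 617784 regions tested), and 31697 lower (5.13%) and 8493 higher (1.37%) regions had an unadjusted limma p under 0.05. With libraries at the same median these became 14935 lower and 25647 higher, so the side with more regions changed with the scaling. Leaving out the first KO library gave 65345 regions past the adjusted threshold. Values were apart and lower at 39.2% of regions and apart and higher at 22.3%, and at the remaining 38.5% the libraries of the 2 genotypes overlapped in spite of the listing.

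Among length, distance to genes and chromosome, length went most with direction. The share of regions lower in KO was 61.8% under 500 bases and 58.9% from 500 to under 1000 bases, then 68.3% from 1000 to under 2000, 81.2% of 8305 regions from 2000 to under 5000, and 98.9% of the 95 regions of at least 5000 bases (94 regions). Comparing single libraries, the share lower in the longest class ranged from 87.4% to 98.9% over the 4 pairings of a KO with a Cre library, against 59.1% to 61.4% in the shortest class. The order from the class of 500 to under 1000 bases upward was the same in every pairing.

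**Figure D1:**
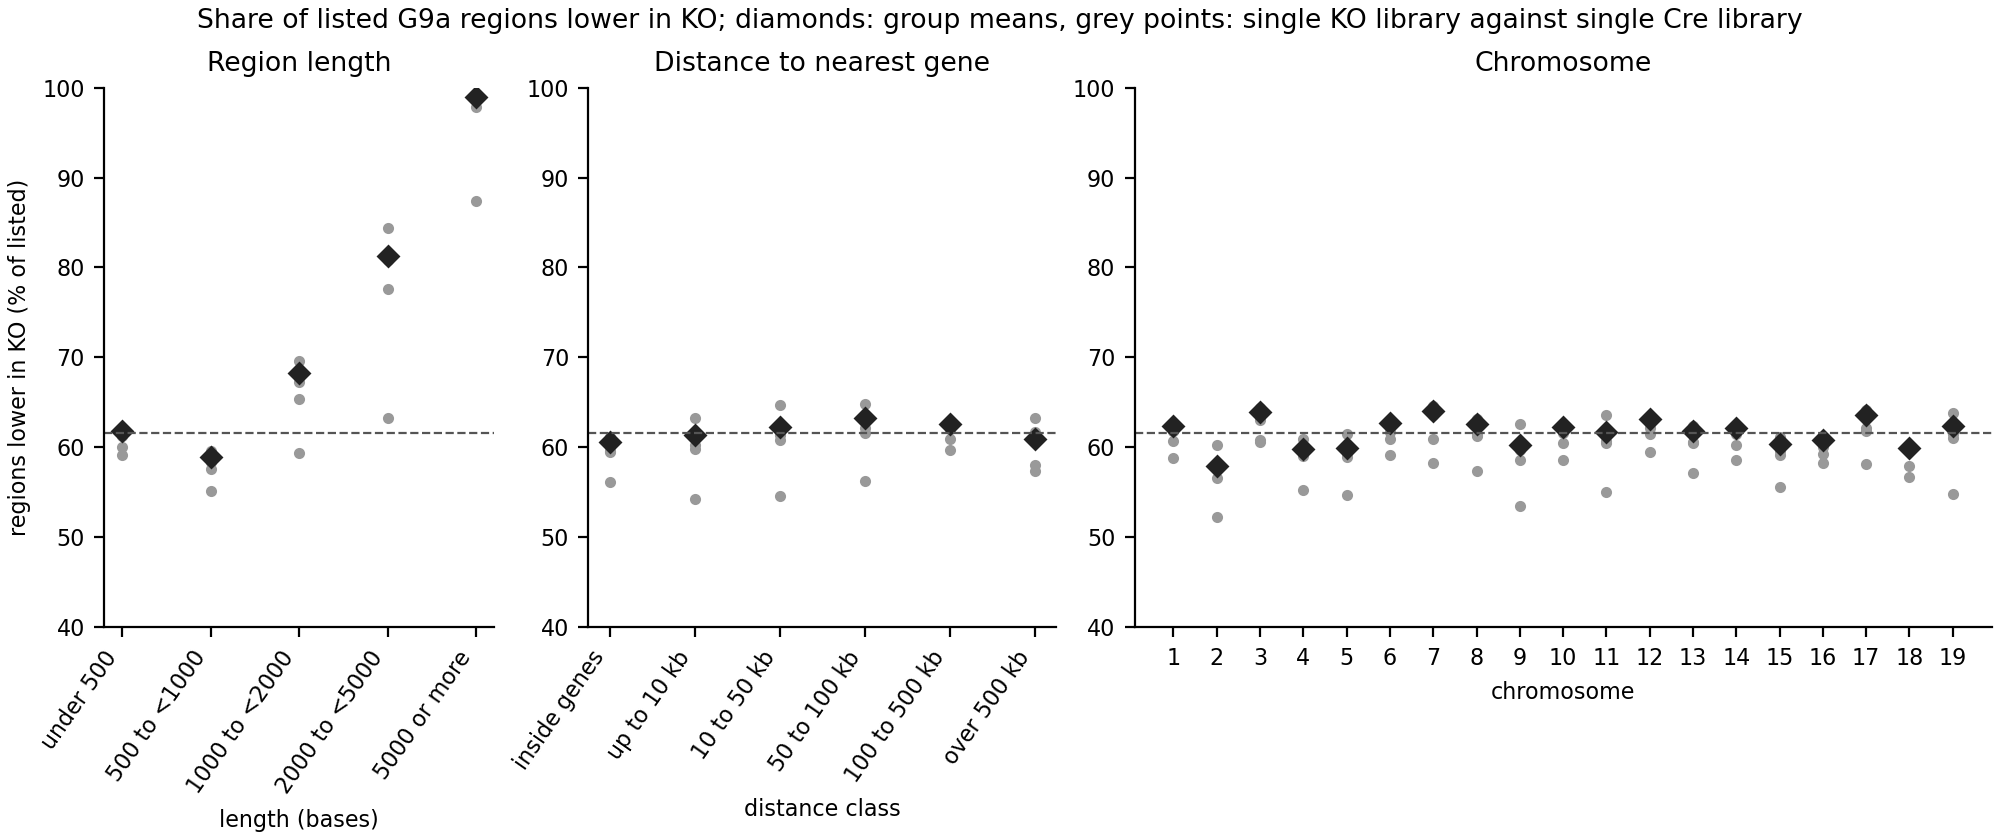
Share of listed G9a regions lower in KO (% of the regions of each class) by region length, by distance to the nearest protein-coding gene and by chromosome. Diamonds compare the group means, grey points compare 1 KO with 1 Cre library, and the dashed line is the share over all regions (61.6%), with axes from 40%; the share is 58.9% at 500 to under 1000 bases and climbs from there with length to 98.9%, and lies between 60.6% and 63.2% over the classes of distance.

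In terms of signal, the longest regions took 0.355% and 0.382% of all listed signal in the Cre libraries but 0.270% and 0.223% in the KO libraries, with the groups apart (exact permutation p = 0.333, two-sided, the smallest possible). Their median signal per kb was 367.5 and 390.6 in Cre and 231.6 and 150.0 in KO. These shares do not depend on the scale of a library. In the class from 2000 to under 5000 bases the shares were 5.81% and 5.19% in Cre and 5.21% and 3.57% in KO, and there the libraries overlapped. Regions were also put into 5 equal classes by signal per kb, and within each class the lower share was also higher among regions of 2000 to under 5000 bases than among regions under 500 bases. In the class of lowest signal only 18 regions were so long. In that of highest signal the share was 74.9% against 40.4%, and in the middle class 89.5% against 56.3%. The length of a region is itself a product of the authors' caller, and its part in these shares was not tested.

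The 5 longest regions were all lower in KO with values apart. The longest, 20700 bases at chr17:13217651-13238350, covered Smok2a and lay over or within 2 kb of Smok2b, kinase genes of the t-complex. Its signal values were 6328 and 8474 in Cre and 3466 and 2309 in KO (log2 -1.36.) The next, 15350 bases at chr4:146485101-146500450, lay within 2 kb of the zinc finger gene Zfp981 but touched no protein-coding gene. It had 9485 and 8829 in Cre and 5882 and 5659 in KO. The other 3 had no protein-coding gene within 2 kb. At chr7:11581751-11595200 (13450 bases) values went from 6018 and 4471 in Cre to 1658 and 1576 in KO. At chr8:71810051-71822150 (12100 bases) they were 4406 and 4834 against 2480 and 1689. At chr17:13392701-13404700 (12000 bases) they were 3137 and 4135 against 1635 and 762. Log2 ratios of the 5 lay between -1.70 and -0.67. None had an limma adjusted p under 0.454. How reads with several possible positions were placed is not stated in the labels or the list.

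Distance to genes did not sort the regions by direction in the way length did. Of 216866 regions inside a protein-coding gene, 60.6% were lower in KO, and of 48107 regions over 500 kb from any gene 60.9%. The classes between lay from 61.4% to 63.2%. As a share of all listed signal, regions inside genes held 33.7% and 33.8% in Cre against 34.4% and 33.9% in KO, a small difference with KO higher in both libraries (exact permutation p = 0.333, two-sided, the smallest possible). The number of genes in the surrounding 1 Mb made as little difference, with lower shares between 60.7% and 62.2% over 5 classes of gene number. Split into 10 equal stretches from the low to the high end of a chromosome, shares ranged from 61.2% to 62.2%. Among chromosomes the lower share ran from 58.0% on chromosome 2 to 64.1% on chromosome 7. Chromosome 2 held 7.41% and 7.27% of the listed signal in the Cre libraries and 8.06% and 7.63% in the KO libraries. Chromosome 7 went the other way, with 6.54% and 6.75% in Cre and 6.54% and 6.09% in KO. The groups were apart on both, KO higher on chromosome 2 and lower on chromosome 7, and also on chromosomes 4 and 15 (KO higher) and 8, 13 and 17 (KO lower), while the other 12 chromosomes overlapped (exact permutation p = 0.333, two-sided, the smallest possible). A share of 0.333 of chromosomes would be expected to be apart if genotype made no difference, so these are listed as a description. On chromosome 7 the first Cre and the first KO library were almost equal.

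Signal per kb showed a trend that the choice of ranking made. Ranked by the mean of all 4 values, the lower share was 73.1% for the weakest class and 46.0% for the strongest. Ranked by the Cre mean alone it went from 0% to 97.6%, and by the KO mean alone from 100% to 1.30%. Ranks taken from a group's own values carry that group's difference, so no relation between direction and signal level is claimed. The highest class by the mean of all 4 values held 30.1% and 27.7% of the signal of the Cre libraries and 35.4% and 34.8% of that of the KO libraries, and the same limit applies.

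Gene starts were compared next. RefSeq gave 20084 starts for 16456 genes, 81.7% of the protein-coding genes on 18 chromosomes, and starts on chromosome 18 were not analysed here. Windows of 250 bases before to 50 after the start were touched by a lower region at 3329 starts (16.6%) and by a higher region at 1756 (8.74%). The CpG ratio is the number of CpG found over the number that the C and G of the window would give at random order. Starts with a ratio of at least 0.6 are called rich in CpG, and are typical of broadly used genes. Starts under 0.6 are called poor.

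Listed G9a regions were more common, and more often lower in KO, at the starts poor in CpG. The list holds regions chosen for a difference, so this does not say where G9a itself was more common. Of 10255 poor starts 31.4% were touched by a listed region, against 18.96% of 9829 rich starts. The lower share was 70.0% at poor and 57.6% at rich starts. Median signal per kb at poor starts was 180.0 and 168.4 in Cre and 141.8 and 91.2 in KO. At rich starts it was 148.3 and 160.0 in Cre and 134.4 and 124.1 in KO. Of all listed signal, regions at poor starts held 0.728% and 0.721% in the Cre libraries and 0.699% and 0.542% in the KO libraries, with the groups apart (exact permutation p = 0.333, two-sided, the smallest possible). The second KO library made most of that gap, and without it the lower share at poor starts was 64.7%. Regions at rich starts held 0.259% and 0.303% in Cre and 0.289% and 0.301% in KO, which overlap. The median CpG ratio was 0.366 at starts touched by lower regions, 0.526 at those touched by higher regions and 0.586 over all starts.

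**Figure D2:**
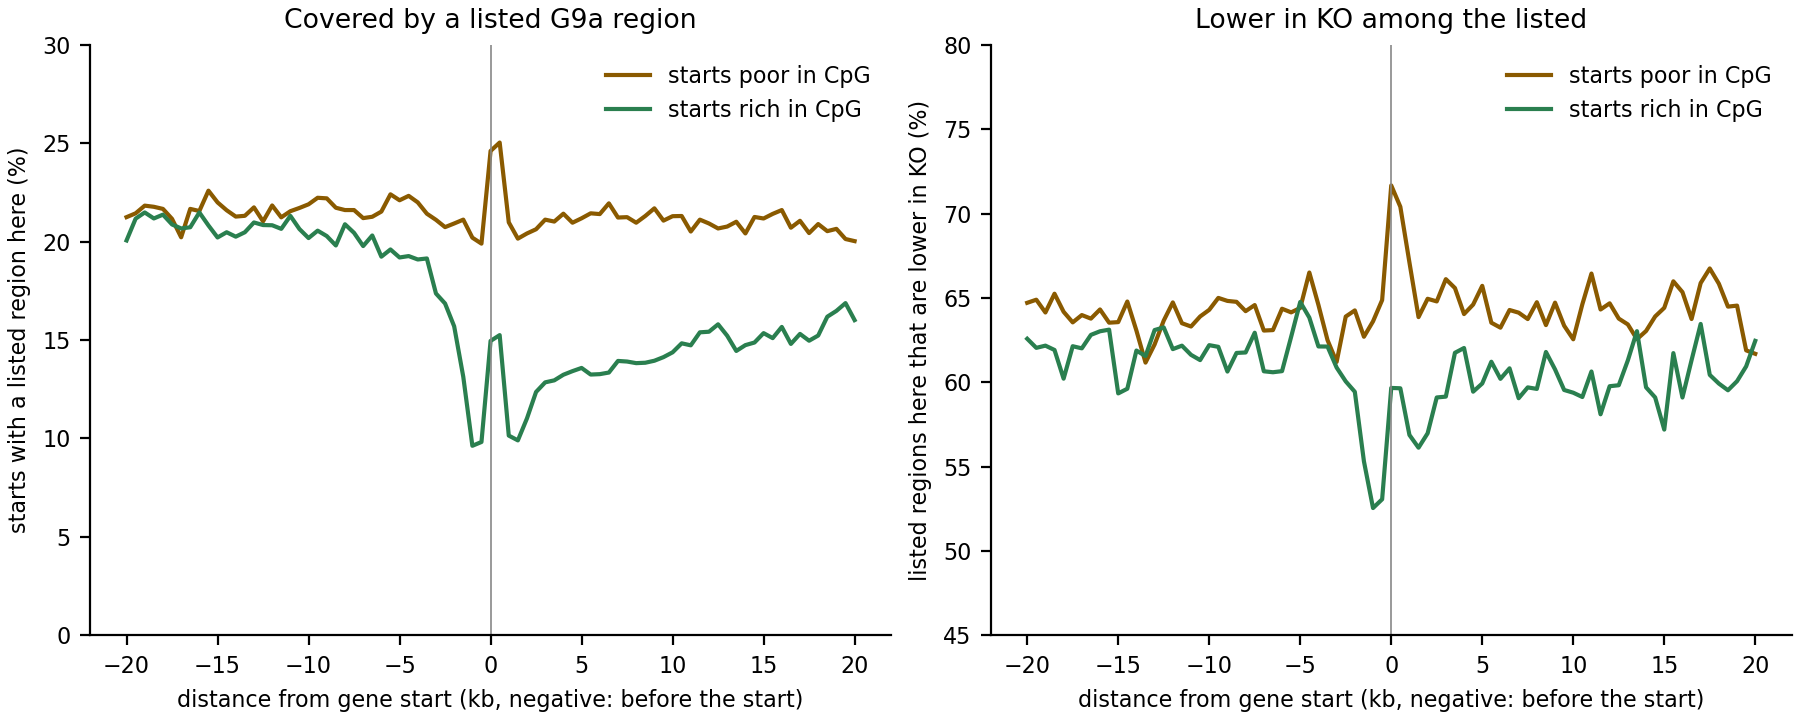
Share of gene starts with a listed G9a region at each distance from the start (left, % of starts) and share of those regions that are lower in KO (right, %), in steps of 500 bases out to 20 kb, for starts poor and rich in CpG. Rich starts dip to 9.62% listed 1000 bases before the start, while poor starts reach 24.6% at the start and 25.04% at 500 bases after it.

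Along the flanks the 2 kinds of start differed in shape. At rich starts the share with a listed region was 20.1% at 20 kb before the start, 9.62% at 1000 bases before it, 14.96% at the start and 10.1% at 1000 bases after it. At poor starts the same positions gave 21.2%, 20.2%, 24.6% and 21.0%. At 500 bases after the start the shares were 15.2% at rich and 25.04% at poor starts, so at both kinds these positions stood above those 1000 bases before and after the start. At rich starts they stayed under the share at 20 kb before it. Over all starts the lower share of the regions was 67.3% at the start, 60.1% at 1000 bases before it and 63.7% at 20 kb before it. Split by CpG, the lower share at the start was 71.7% at poor and 59.7% at rich starts, and at 1000 bases before it 63.6% and 52.5%.

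Summing signal over 1 Mb bins showed a drop that was nearly even along the genome. Of 2401 bins with at least 50 listed regions, 343 (14.3%) were lower in KO by limma at an adjusted p of 0.05 and none was higher (0 bins, 0%). Values were apart and lower in 71.4% of the bins and apart and higher in 0.0833%. The median log2 difference was -0.30, and 99.3% of the bins were negative. With libraries at the same median the median became 0.03, 41.0% of the bins were negative, and limma called 0 bins, with 2 lower and 9 higher at an unadjusted p under 0.05, against 1011 lower (42.1%) and 0 higher as deposited. Values so scaled were apart and lower in 8.08% of the bins and apart and higher in 12.2%. The called bins thus rest on the total level of the KO libraries. The count also rests on single libraries, since leaving out 1 of the 4 gave between 0 and 928 called bins.

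Over the bins, the SD of the log2 difference between single libraries was 0.174 for the second against the first Cre library and 0.308 for the second against the first KO library. For a KO against a Cre library it was 0.137 for both first values, 0.172 for both second values, 0.249 for the first KO against the second Cre and 0.266 for the second KO against the first Cre. The SDs between and within genotypes thus overlap. The SD was 0.118 for the difference of the 2 group means, which averaging makes smaller. The differences between libraries of a genotype went with gene number. In bins with 0 genes the second KO library stood above the first by a median of 0.24 log2, and in bins with 16 to 30 genes it stood under it by a median of -0.31. For Cre the same medians were 0.04 and -0.21. The KO to Cre difference kept within -0.31 and -0.27 over all 5 classes of gene number. Across the 2401 bins, the second-minus-first differences of KO and of Cre had a Pearson r of 0.79. This is a description over bins that share libraries, gene number and base composition.

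**Figure D3:**
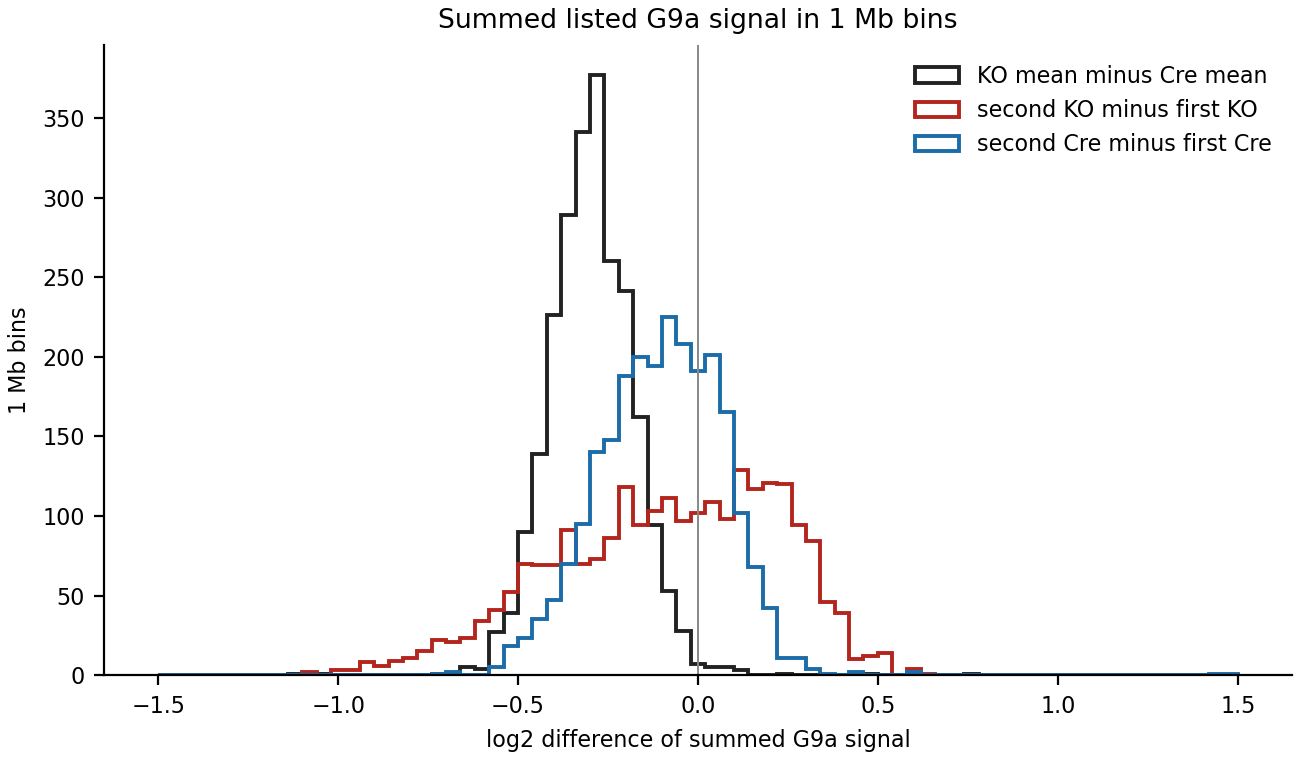
Distribution over 2401 bins of 1 Mb of the log2 difference of summed G9a signal (horizontal axis) for KO mean minus Cre mean and for the second minus the first library of each genotype, as numbers of bins (vertical axis). The KO minus Cre curve is centred at -0.30 and is of means of 2 libraries, which makes it narrower than curves of single libraries.

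The bin with the lowest ratio was chr7:11000001-12000000, with genes of the early-embryo factor Zscan4 and a vomeronasal receptor, where the bin sums were 64780 and 60492 in Cre and 29117 and 28572 in KO. Its log2 ratio was -1.12, its limma adjusted p 0.00961, and the ratio stayed at -0.79 with libraries at the same median. Zscan4d there went from 819 and 573 in Cre to 231 and 162 in KO. In chr17:13000001-14000000, the t-complex stretch with Smok2a and Tcp10c, sums were 69383 and 85445 in Cre and 42283 and 33090 in KO (limma adjusted p = 0.0708). In both bins no KO library reached a Cre library, with or without scaling.

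The bin chr13:66000001-67000000 carries zinc finger genes, among them Zfp640, and had sums of 14473 and 17030 in Cre against 9465 and 9772 in KO (log2 ratio -0.71, limma adjusted p = 0.00233). In chr8:20000001-21000000, where defensin genes such as Defb33 lie, sums were 34281 and 46497 in Cre and 24687 and 26765 in KO (log2 ratio -0.65, limma adjusted p = 0.0194). The libraries of this bin overlapped once scaled to the same median. In chr8:71000001-72000000 sums were 54808 and 54746 in Cre and 37726 and 32345 in KO (log2 ratio -0.64, limma adjusted p = 0.0943).

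Only 2 bins had values apart and higher, and 1 of the 5 highest was among them. In chr17:30000001-31000000 the sums were 55262 and 45708 in Cre and 84641 and 58347 in KO (log2 0.50) with an limma adjusted p of 0.415. Dnah8, a dynein heavy chain gene there, had gene sums of 27207 and 22461 in Cre against 53053 and 32269 in KO. Its neighbour Btbd9 had 6472 and 7172 in Cre and 9845 and 13290 in KO, and Glo1, the glyoxalase gene, 1061 and 1093 against 1423 and 1342. All 3 were higher in both KO libraries. Glp1r and Umodl1 in the same bin did not follow, with overlapping values.

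The other 4 of the highest bins overlapped between genotypes. In chr7:32000001-33000000 sums were 2355 and 7495 in Cre and 5825 and 8799 in KO, and without the first Cre library its log2 ratio turned from 0.57 to -0.04. In chr8:61000001-62000000 they were 18668 and 19445 in Cre and 30944 and 16148 in KO, so that the first KO library alone was high. The gene behind it was Palld, which encodes the actin-binding protein palladin, with 3529 and 3060 in Cre and 18049 and 3380 in KO. Without the first KO library the log2 ratio of this bin turned from 0.31 to -0.24. The bins chr17:6000001-7000000 and chr17:27000001-28000000 had log2 ratios of 0.14 each and turned to -0.11 and -0.23 without that library, and to -0.06 and -0.05 without the second Cre library. With libraries at the same median these last 3 bins were apart and higher.

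Gene sums were taken over all listed regions with their midpoint in the gene span or within 2 kb of it, for 18433 protein-coding genes with a mean sum of at least 50. The KO sum was lower at 68.6% of these genes. By limma 0 genes (0%) passed an adjusted p of 0.05 in either direction, and 1923 lower (10.4%) and 374 higher (2.03%) had an unadjusted limma p under 0.05. Scaling to the same median gave 553 lower and 1125 higher, and the share with a negative limma difference went from 69.8% to 46.3%. Values were apart and lower at 38.2% of the genes and apart and higher at 12.7%. With libraries at the same median these shares were 18.8% and 24.4%. Leaving out the first KO library gave 2255 genes past the adjusted threshold, 2080 of them lower. Gene directions are therefore relative to a median log2 difference of -0.27 that moved to 0.05 with the scaling.

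Among genes with at least 5 regions and a mean sum of at least 200, the 10 with the lowest ratios and values apart had log2 ratios from -2.22 to -1.57. Mrps35, a protein of the mitochondrial ribosome, had sums of 747 and 536 in Cre against 189 and 84 in KO. Dcn, the matrix proteoglycan decorin, had 530 and 467 in Cre and 114 and 112 in KO (log2 -2.13) (limma SE 0.42, adjusted p = 0.398). At both genes all 5 regions were lower. Gosr2, a SNARE protein of the Golgi, had 471 and 604 in Cre and 140 and 132 in KO. Lox, which cross-links collagen, had 575 and 667 against 260 and 156. Cbln2, a secreted synaptic protein, had 631 and 700 against 291 and 133. All 10 had their values apart also with libraries at the same median. That scaling shifts ratios by about 0.33 log2, well under the size of the ratios these genes were chosen for.

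The others of the 10 were Ces2e (a carboxylesterase), Ifi27l2b (an interferon-inducible gene), Gm8909, Myo19 (a myosin of mitochondria) and 2410141K09Rik. Gm8909 had 1321 and 1076 in Cre and 429 and 289 in KO, with all 9 regions lower. At 2410141K09Rik the KO libraries differed most from each other, with 33 and 507 against 714 and 925 in Cre. The 2 matrix genes of this set, Dcn and Lox, are products of fibroblasts, in which the Myh6 promoter is not active. Listed signal at Dcn in the Cre libraries does not say in which cells G9a sat there.

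The 10 genes with the highest ratios had log2 ratios from 1.34 to 1.70, and all their regions were higher. Scaling to the same median could not change that their values were apart, because it raises both KO libraries and lowers both Cre libraries. Usp38, a deubiquitinating enzyme, had sums of 107 and 142 in Cre against 300 and 512 in KO. Nptn, the cell adhesion protein neuroplastin, had 159 and 225 in Cre and 344 and 788 in KO. Ints6, a subunit of the Integrator complex, had 345 and 214 against 421 and 1179. In 8 of the 10 the second KO library was the higher of the pair. Epc1, a subunit of the NuA4 acetyltransferase complex, had 220 and 297 against 566 and 773. Spsb1, a SOCS box protein, had 259 and 297 in Cre and 762 and 646 in KO, with the first KO library the higher. Esp34, of a multi-copy family of secreted peptides, had 1030 and 781 against 1962 and 2645, with a log2 ratio of 1.35 (limma SE 0.30, adjusted p = 0.398). The remaining 4 were Fam222b, Usp25, Cenps (a centromere protein) and Gm29721. Gm29721 had 840 and 150 in Cre and 1703 and 913 in KO, so its first Cre and second KO library nearly met.

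**Figure D4:**
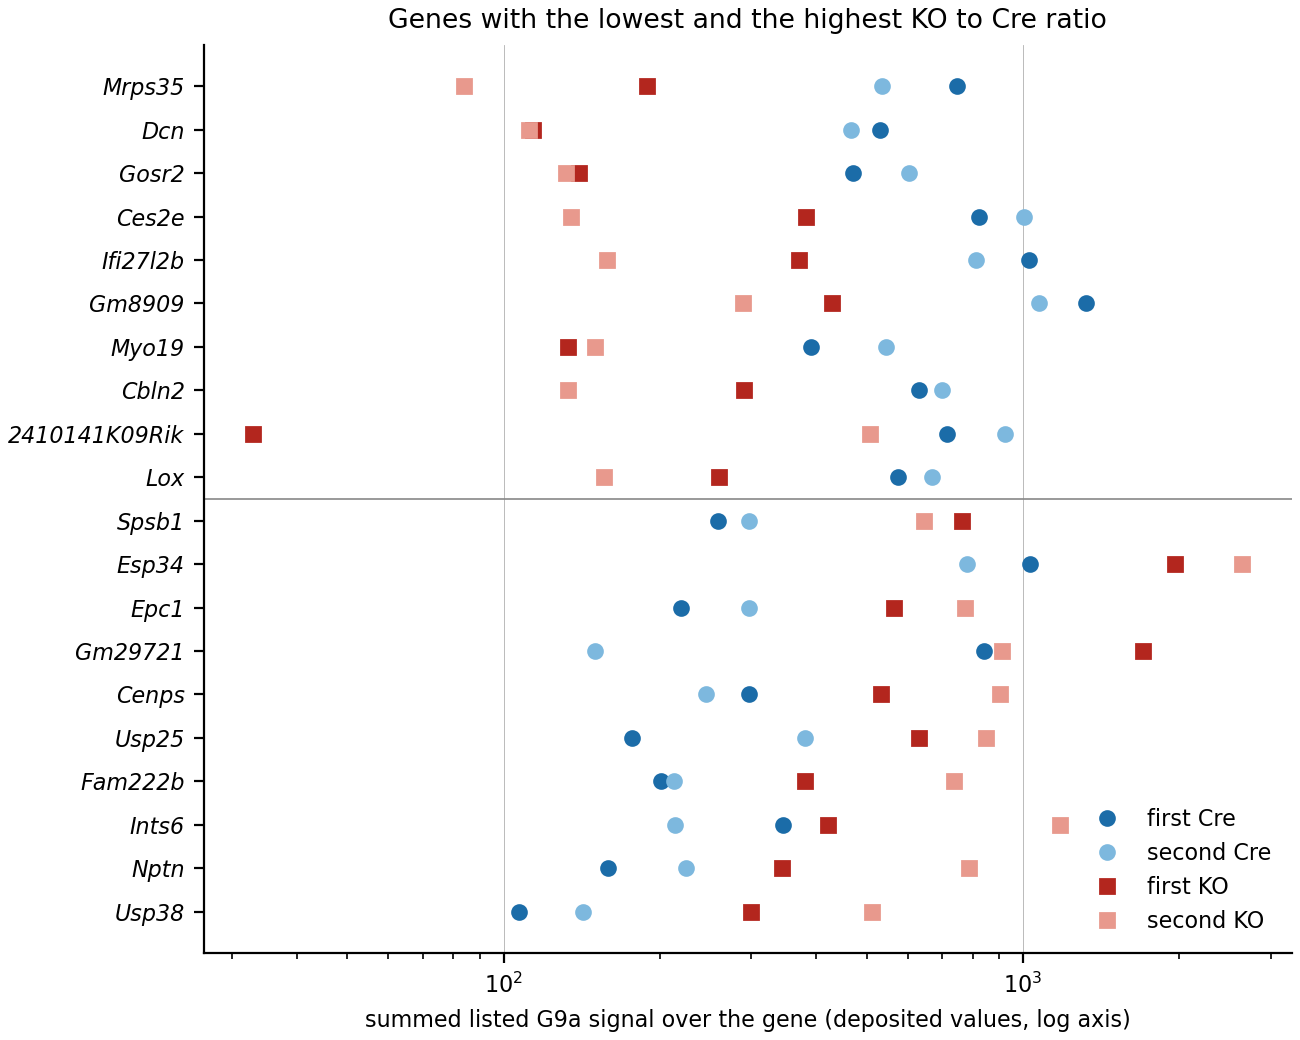
Summed listed G9a signal over each gene in the 4 libraries (deposited values, log axis) for the 10 genes with the lowest and the 10 with the highest KO to Cre ratio among genes with at least 5 regions, a mean sum of at least 200 and values apart. Circles are Cre and squares KO libraries, and the groups do not overlap because the genes were chosen so.

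Genes with the most regions were long neuronal genes, and their ratios lay near the drop seen over the genome. Cntnap2 held 506 regions, Dpp10 480, Lsamp 463, Dlg2 441 and Asic2 435. Cntnap2, a neurexin-like adhesion protein, had sums of 58353 and 59465 in Cre against 42114 and 49779 in KO. Asic2, an acid-sensing channel, had 65433 and 58872 against 52353 and 39521. The 5 log2 ratios lay between -0.44 and -0.34, all with values apart. With libraries at the same median all 5 overlapped, with ratios from -0.12 to -0.01.

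Single regions reached larger ratios. Of regions of at least 500 bases at genes, with a larger group mean of at least 200, the 8 lowest had log2 ratios from -6.05 to -5.72 and were almost empty in both KO libraries. At Fndc3a (chr14:72709551-72710900) the values were 315 and 344 in Cre and 8 and 0 in KO. Inside Plcl1 (chr1:55750301-55751550) they were 337 and 326 against 9 and 1, and inside Pdzd2 (chr15:12572101-12573050) 300 and 238 against 3 and 5. The other 5 lay at Gm3985, Rgs20, Gabra2, Ajap1 and Dars, with KO values of at most 6. None of the 8 had an limma adjusted p under 0.454.

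Of the 8 highest, 6 were apart. Inside B3galt1 (chr2:67757951-67758700), a galactosyltransferase gene, values were 12 and 9 in Cre and 109 and 354 in KO. Near Ptpn11 (chr5:121192701-121193650), the gene of the phosphatase SHP2, they were 31 and 1 in Cre and 160 and 465 in KO. Inside Ylpm1 (chr12:85023701-85024450) they were 11 and 13 against 108 and 310. Those at Btbd8, Rbm47 and Rrh were of the same kind, and at all 6 the second KO value was the higher. The other 2 lay inside Palld, where values were 39 and 3 in Cre against 992 and 14 in KO, and 94 and 12 against 1824 and 20. Only the first KO library was high there, and without it the log2 ratios turned from 4.52 and 4.10 to -0.55 and -1.36.

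Ehmt2 itself carried 3 listed regions. The one at chr17:34907251-34908750 had the lowest ratio, with 410 and 353 in Cre and 67 and 106 in KO (log2 -2.13.) At chr17:34899351-34900050 values were 157 and 75 in Cre against 73 and 74 in KO. At chr17:34905901-34906800 they were 123 and 174 against 175 and 246, higher in KO by 0.50 log2. Over the gene with 2 kb either side, sums were 743 and 791 in Cre and 410 and 483 in KO (log2 ratio -0.78, limma SE 0.32, adjusted p = 0.398), and the groups stayed apart after scaling. The labels do not say which part of Ehmt2 is floxed, so the place of the deletion was not tested here.

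Gene lists for the heart and for chromatin were read against the 38.2% of all genes that were apart and lower and the 12.7% apart and higher. Counts with libraries at the same median were read against 18.8% apart and lower and 24.4% apart and higher. Among G9a partners and other H3K9 methyltransferase genes, 4 of 14 measured genes were apart and lower and 2 apart and higher, and with libraries at the same median 2 and 4. Trim28, a scaffold of H3K9 silencing, had 156 and 299 in Cre and 88 and 26 in KO, from 1 region. Ehmt1, the partner of G9a, overlapped at 755 and 1110 against 962 and 805, as did Wiz at 374 and 486 against 580 and 376 and Zfp644 at 812 and 927 against 508 and 1178, zinc finger partners of the complex. Setdb1, another H3K9 methyltransferase, was apart and higher with 217 and 232 against 349 and 669. Cbx5, the gene of the H3K9me reader HP1 alpha, was too, with 125 and 141 against 294 and 328.

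The H3K9 demethylase genes had the highest median of the 18 lists, 0.37 log2 against -0.25 over all genes tested, with 7 of 9 positive. This rested on the second KO library: without it the median was -0.14 with 3 of 9 positive, while it was 0.76 without the first KO and 0.17 without the second Cre library. Kdm4a had 764 and 818 in Cre and 1033 and 2101 in KO, and Jmjd1c 510 and 398 against 593 and 1112. Those 2 were apart and higher, and Kdm4b was apart and lower with 1325 and 1555 against 913 and 973. The other 6 overlapped, among them Kdm3a at 169 and 58 against 52 and 336. Scaled to the same median, 0 were apart and lower and 3 apart and higher. In all 9 the second KO value was the higher of the pair. None of the 9 passed limma over all genes at an adjusted p of 0.05.

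Polycomb genes were split, with 6 of 14 apart and lower and 4 apart and higher, and 4 each with libraries at the same median. Eed, a core subunit of the complex that writes H3K27me3, had 396 and 343 in Cre and 242 and 226 in KO, and Rnf2, a ligase of the other complex, 574 and 548 against 257 and 411. Kdm6b, an H3K27 demethylase, was lower as well with 294 and 397 against 119 and 189. Ezh2, the H3K27 methyltransferase, was apart and higher with 680 and 735 against 912 and 1452. Jarid2, a cofactor of that complex, had 1001 and 1061 against 1143 and 1387.

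Of 19 sarcomere genes measured, 4 were apart and lower and 4 apart and higher. Myh6, which encodes the main myosin heavy chain of the adult mouse heart and lends its promoter to the transgene, carried 1 listed region, chr14:54965151-54971500, which runs over the start of the gene and beyond its span, with 7256 and 4271 in Cre and 3323 and 1738 in KO. Its log2 ratio was -1.19 (limma SE 0.38, unadjusted p = 0.0115, adjusted p = 0.398). Both genotypes carry a transgene with the Myh6 promoter, and its part in these values was not tested. The position of this region was looked up after its values were seen. It also runs into the span of Myh7, and its signal was counted for Myh6 because its midpoint lay within 2 kb of that gene. The sums of Myh7, 370 and 85 in Cre against 157 and 36 in KO, did not include this region and overlapped between genotypes. Myl7, the atrial light chain, had 714 and 379 against 299 and 134. Myom1, the M-band protein myomesin, was apart and higher with 660 and 782 against 1167 and 1542. Actn2 of the Z-disc had 220 and 96 against 243 and 300. With libraries at the same median, 2 sarcomere genes were apart and lower and 10 apart and higher, against 18.8% and 24.4% of all genes. The deposited median of the list, 0.18 log2, became -0.12 without the second KO library, with 10 of 19 genes negative. Without any other single library it lay between 0.03 and 0.12.

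Fetal and hypertrophy-associated genes had the lowest median of the lists, -0.45 log2, with 6 of 11 measured genes apart and lower and 0 apart and higher. Tpm2, a tropomyosin, had 776 and 961 in Cre and 491 and 353 in KO. Ccn2, the matrix growth factor CTGF, had 162 and 155 against 67 and 73. Nppb, which encodes brain natriuretic peptide, overlapped with 632 and 187 against 362 and 131. After scaling to the same median, 3 were apart and lower and 3 apart and higher, with a median of -0.15. The deposited median of -0.45 became -0.18 without the second KO, -0.27 without the first Cre and -0.83 without the first KO library. Genes that restrain hypertrophic growth had 6 of 18 apart in each direction, and 4 lower and 9 higher with libraries at the same median. Rgs4, a brake on G protein signalling, had 575 and 796 against 348 and 301. Foxo3, a transcription factor of atrophy, had 615 and 652 against 856 and 1038.

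Of 17 cardiac transcription factor genes, 5 were apart and lower and 5 apart and higher, and 3 and 6 after scaling to the same median. Gata4 had 255 and 289 in Cre and 131 and 172 in KO, and Irx4, a factor of the ventricle, 268 and 201 against 101 and 70. Tbx5 had 2247 and 2510 against 1661 and 1833. Nkx2-5 was higher, with 90 and 102 in Cre and 221 and 207 in KO, from 1 region. Mef2d was higher too, with 245 and 297 against 299 and 551. Mef2c, itself a target of the study, overlapped at 591 and 668 against 629 and 758.

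Genes of calcium handling had 4 of 12 apart and lower and 1 apart and higher, and those of ion channels and junctions 7 of 20 and 1. Under scaling to the same median the balance turned, as it did over all genes (18.8% lower and 24.4% higher). It became 1 lower and 3 higher for calcium handling and 2 lower and 7 higher for channels and junctions. Sln, which encodes the calcium pump regulator sarcolipin, had 746 and 428 in Cre and 351 and 121 in KO. Ryr2, the calcium release channel, overlapped at 1645 and 1644 against 1401 and 2290. Hcn4, the pacemaker channel, had 1040 and 1112 against 679 and 952, and overlapped once scaled.

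Fatty acid and mitochondrial genes were split, with 5 of 18 apart and lower and 4 apart and higher, and 4 and 7 when scaled. Acadm, an enzyme of fatty acid oxidation, had 271 and 255 in Cre and 89 and 23 in KO. Esrra, a nuclear receptor of mitochondrial genes, had 383 and 345 against 141 and 75. Slc25a20, the carnitine carrier, was higher with 155 and 55 against 188 and 236. Autophagy genes had 4 of 24 apart in each direction, and 3 lower and 5 higher when scaled. Atg13 was lower, with 457 and 324 against 217 and 127, and Atg3 higher, with 130 and 76 against 183 and 301.

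Germline genes, a known class of G9a targets in early development, had 4 of 19 apart and lower and 2 apart and higher, and 2 and 6 with libraries at the same median. Dazl, an RNA-binding protein of germ cells, had 497 and 405 in Cre and 255 and 142 in KO, with all 4 regions lower. Ddx4, the germ cell helicase, had 1908 and 1596 against 1312 and 1162. Of 16 imprinted genes 15 were negative, where 68.6% of all genes tested were, with 5 apart and lower and 0 apart and higher. After that scaling 1 was apart in each direction, and the list's median went from -0.41 to -0.11. Without the first Cre library 9 of the 16 were negative (median -0.29), and without the second KO library 10 (median -0.22). Without either of the other libraries 15 were. Snrpn, within a large imprinted cluster, had 14842 and 16321 in Cre and 11738 and 11727 in KO over 120 regions. Zdbf2 had 4420 and 4311 against 2975 and 3287.

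Marker genes of other heart cells also held listed regions, as most protein-coding genes did (18433 of 20661 had a mean sum of at least 50). All 14 endothelial genes had negative ratios, against 68.6% of all genes tested. Of the 14, 6 (42.9%) were apart and lower, where 38.2% of all genes were, and 0 apart and higher, with a median of -0.37. Once scaled, 3 were apart and lower and 1 apart and higher, and the median was -0.06. The deposited median became -0.09 without the second KO, -0.16 without the first Cre and -0.74 without the first KO library. Without the second KO library 3 of the 14 were positive, and without any other single library 0 were. Emcn, the vascular sialomucin endomucin, had 2538 and 2244 in Cre and 1478 and 1226 in KO. Kdr, a receptor for VEGF, had 2611 and 2073 against 1583 and 1295, and Tek, the angiopoietin receptor, 2945 and 3412 against 2275 and 1934. Vwf and Erg overlapped. Of 12 fibroblast genes 5 were apart and lower and 0 apart and higher, and of 13 immune genes 4 and 1. When scaled these became 4 lower and 4 higher fibroblast genes and 2 lower and 4 higher immune genes. Lyz2, the lysozyme of myeloid cells, had 669 and 516 against 253 and 265. Of 10 smooth muscle and pericyte genes 4 were apart and lower and 0 apart and higher, and 1 in each direction when scaled. G9a at a marker gene can come from any cell, and the share of other cell types in each library was not tested.

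Very long genes followed the genome. Of 19 measured, 13 were apart and lower and 0 apart and higher, with a median of -0.33 log2. Csmd1 had 52327 and 54035 in Cre and 37807 and 35703 in KO, and Sox5 44529 and 40450 against 34697 and 26850. After scaling to the same median, 2 of the 19 were apart and lower, which were these 2. Ctnna3 did not share the drop, with 15739 and 18056 against 14733 and 19981.

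**Figure D5:**
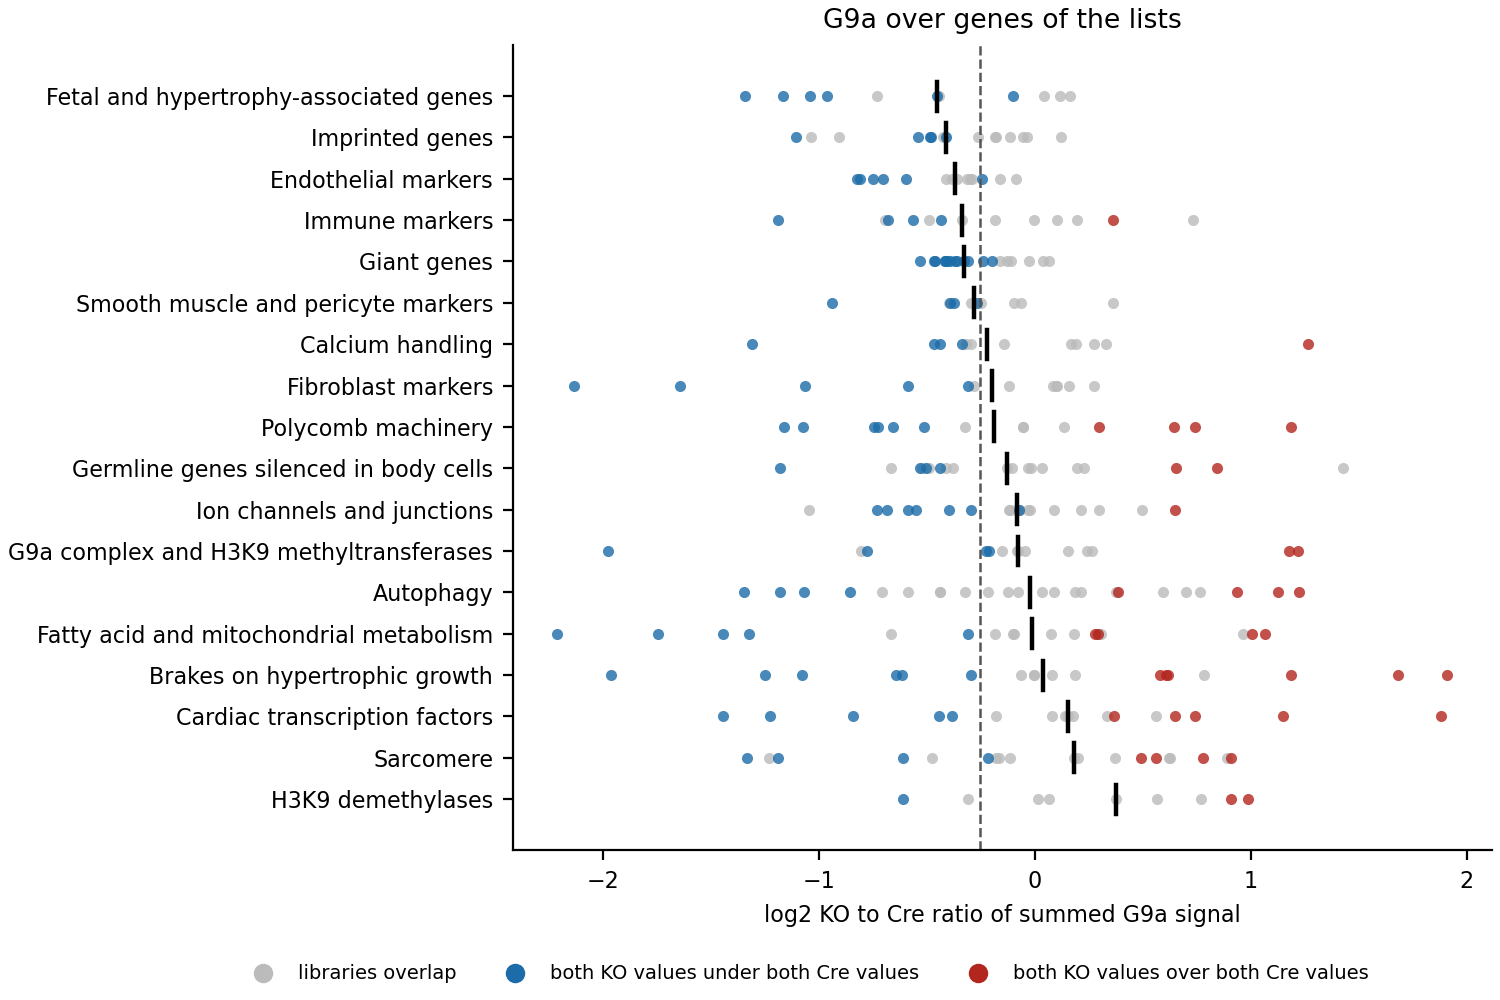
Log2 KO to Cre ratio of summed G9a signal over each measured gene of the 18 lists (points), with the median of each list (black bar) and the median over all genes tested (dashed line, -0.25), where blue and red points have values apart, and grey points overlap between genotypes. Medians run from -0.45 for fetal and hypertrophy-associated genes to 0.37 for H3K9 demethylases, and every list spans both sides of the dashed line.

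The other 3 targets of the study give readouts at the same places from libraries that the G9a values did not use. Each of those lists was again chosen for a difference, so shares are read against the same share over all G9a regions. The list's own split, which counts regions of the other target, is given beside it. For H3K9me2, the mark that G9a writes, 39.7% of its listed regions were lower in KO. Of G9a regions lower in KO that overlapped H3K9me2 regions of a single direction by at least 1 base, 44.0% met a lower one. Of higher G9a regions 28.5% did, and of all G9a regions 38.2%. In either group, more G9a regions met a higher than a lower H3K9me2 region, at 30.3% and 34.6% of the regions against 24.7% and 15.5%. Among G9a regions of 2000 to under 5000 bases, 46.8% of the lower and 29.4% of the higher ones met a lower H3K9me2 region. A higher H3K9me2 region was met by 49.8% and 57.7% of them.

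For H3K27me3, the mark of Polycomb, the lower share of single-direction overlaps was 74.1% at lower and 61.4% at higher G9a regions. It was 69.7% over all G9a regions, and the list's own share was 63.2%. For Mef2c, a muscle transcription factor, the share was 70.6% at lower and 54.9% at higher G9a regions. Over all G9a regions it was 65.0%, and the list's own share was 61.7%. Lower G9a regions thus met lower regions of all 3 other targets more often than higher G9a regions did. Requiring cover of at least 50% of the G9a region gave 47.1% and 24.0% for H3K9me2, 76.1% and 57.2% for H3K27me3 and 74.0% and 50.4% for Mef2c. The gaps grew for all 3. Whether libraries of different targets came from the same hearts is not stated in the labels or the list, and neighbouring regions are not independent, so no test was made.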

How the data were processed

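Chromatin immunoprecipitation signal for G9a was read from the authors' deposited list of differential regions, on mm10 (GRCm38). BWA 0.7.10-r789 and SAMtools 1.1 are named in the submitters' processing notes, and the peak caller, its threshold, scaling, input use and treatment of reads with several positions are not stated there. Each region holds 4 values, 2 for Cre and 2 for KO, in the order the list gives. They are whole numbers whose scale is not stated, so they were not treated as counts and the depth is unknown.

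Regions on chromosomes X, Y and M were left out. Values were summed over protein-coding genes (RefSeq, span and 2 kb either side, mean sum at least 50) and over bins of 1 Mb with at least 50 regions. Differences on log2(value + 1) were tested with limma 3.58.1 (R 4.3.3), with a trend over mean signal and Benjamini-Hochberg adjustment at 0.05, after the script was tested on simulated data. Fold changes of low values are understated on this scale. Shares of a library's signal were compared by exact permutation over the 4 libraries. Because listed regions were selected for a difference, p-values over them are too small.

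Named genes were the 10 lowest and 10 highest ratios among genes with at least 5 regions, a mean sum of at least 200 and values apart, and the 5 with the most regions. Named bins were the 5 lowest and 5 highest ratios, and named regions the 8 lowest and 8 highest of at least 500 bases at genes with a larger group mean of at least 200, and the 5 longest. For gene lists, examples were picked from their members after their values were seen. Members and lists were chosen with earlier results of these data known. Alternatives were 2 scalings, a pseudocount of 10, filters on low values, other windows, bins and rankings, and leaving out each value.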

Additional observations from a re-analysis of the deposited data

How the results depend on the processing

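No paired analysis was possible because the values carry no replicate number. The list itself limits what can change: only 0.0613% of regions had a log2 ratio smaller than the shift of the median scaling. With libraries scaled to the same median and to the same sum, the median log2 ratio of regions was -0.42 and -0.45, the median difference of genes turned to 0.049 and 0.023, that of 1 Mb bins turned to 0.026 and 0.00066, and 0 bins were called under both. The lower share of the class of lowest signal per kb (of 5 equal classes) became 94.4% and 93.3%, and that of the highest 32.8% and 34.0%. Ranked on the Cre mean these classes had 0% and 97.6%, and on the KO mean 100% and 1.30%. The shortest regions were lower at 57.9% with a mean value of at least 50, and starts rich in CpG at 60.3% with a CpG ratio of 0.4. Cover of at least 50% of the G9a region moved the lower share of the other target at lower and higher G9a regions to 47.1% and 24.0% for H3K9me2, 76.1% and 57.2% for H3K27me3, and 74.0% and 50.4% for Mef2c.

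Leaving out each value in turn gave ranges. The share of lower regions was 59.1% to 62.6%, their median log2 ratio -0.65 to -0.33, and the lower share 32.2% to 91.5% in the lowest and 19.3% to 66.3% in the highest signal class. Without the first KO value these classes had 46.4% and 62.6%, and without the second KO value 32.2% and 66.3%, so the order of the classes turned. Ranks were taken anew from the values kept, in which Cre then outweighed KO, so the limit given above for rankings applies. The share was 59.4% to 63.1% for the shortest regions, 58.2% to 61.6% inside genes, 59.3% to 64.3% over 500 kb from a gene, 59.8% to 64.3% in bins with 0 genes and 64.7% to 71.5% at starts poor in CpG. Regions called ranged from 0 to 65345, genes called from 0 to 2255 and bins called from 0 to 928. The median difference was -0.32 to -0.20 for genes and -0.35 to -0.24 for bins. The causes of these changes were not tested.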

Other observations

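The G9a list also holds 3198 regions on chromosome X, which the autosomal comparison left out. That is 18.7 regions per Mb, against 220 to 269 per Mb on chromosomes 1 to 19. Of the X regions 37.5% were lower in KO, where the autosomes had 58.0% to 64.1%. Summed X signal was 228951 and 241103 in Cre and 231744 and 318203 in KO, so the libraries of the genotypes overlapped. Whether the authors treated chromosome X differently when they made the list is not stated in the labels.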
